A study of Mus musculus with 57 samples.

Results

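The genes described here are *Igf1*, *Igf1r* and *Igfbp1* to *Igfbp7*, which encode 1 ligand, 1 receptor and 7 binding proteins of the insulin-like growth factor (IGF) system. They were taken by name from the tables of raw counts and of TPM (transcript abundance corrected for length and library size), and all 9 were found among the 56860 genes listed there. The libraries came from mouse embryos of the 129/Sv background, either wt or homozygous for a null allele of *Hoxa5* (*Hoxa5*-/-), a homeobox gene active in the mesenchyme of the respiratory tract, in the somites and in their derivatives. The allele is a germline one, and the labels name no transgene, Cre driver or drug for either genotype. The 7 tissue and stage contexts were trachea, lung and diaphragm at E15.5, lung at E12.5, trunk segments spanning C3 to T2 at E10.5 and at E12.5 (called somites here, and freed of neural tube, forelimbs and thoracic organs), and, at E18.5, the brown fat between the shoulder blades (iBAT). Each context held 4 wt and 4 *Hoxa5*-/- libraries, except somites at E10.5, with 4 wt and 3 *Hoxa5*-/-, and iBAT, with 5 and 5. The wt embryos used in a context were as many as its wt libraries, which fits 1 embryo per library, and pooling is not described for either genotype. The p-values measure the spread between these libraries.

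IGF1 is a secreted growth factor that acts through IGF1R, a receptor tyrosine kinase of the insulin receptor family. Its close relative IGF2 is the main IGF of fetal growth and uses the same receptor. The IGF binding proteins (IGFBPs) are secreted too. IGFBP1 to IGFBP6 hold IGFs with high affinity, which prolongs their life and can either keep them from the receptor or deliver them to it, and several also act without IGFs. IGFBP7 binds IGFs weakly and is best known from blood vessels and basement membranes. Proteases such as PAPP-A cut some IGFBPs and so free the ligand.

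In GRCm39, the build used by the authors, 4 of the 9 genes lie in pairs set tail to tail. *Igfbp1* (chr11:7147782-7152546, plus strand) lies 3.54 kb from *Igfbp3* (chr11:7156086-7163923, minus strand), and *Igfbp2* (chr1:72863662-72891633, plus strand) lies 5.458 kb from *Igfbp5* (chr1:72897091-72914043, minus strand). *Igf1* is at chr10:87694127-87772904, *Igf1r* at chr7:67602575-67883416, *Igfbp4* at chr11:98932070-98945218 and *Igfbp6* at chr15:102052797-102057946, all on the plus strand. *Igfbp7*, at chr5:77497087-77555888 on the minus strand, overlaps *Polr2b* on the other strand, which had 1261 to 12749 counts in a library. The strand setting of the counting is not given in the sources used here, so some *Igfbp7* counts could be *Polr2b* reads. The antisense gene *Igf1os* overlaps *Igf1* and had 0 to 19 counts.

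The 250 bases just upstream of the transcript start are printed for these pairs, so that the neighbours of a pair, whose levels differed in most contexts (given further on), can be set side by side, and they were read from the GRCm39 primary assembly, with transcript starts from the annotation the authors deposited. Each is read 5′ to 3′ on the strand of its gene, and capitals mark matches to 3 short motifs, searched on both strands: TATAAA (the TATA box), CAAAACA (the insulin response element core) and GGGCGG (the GC box). The windows are chr11:7147532-7147781 for *Igfbp1*, chr11:7163898-7164147 for *Igfbp3*, chr1:72863412-72863661 for *Igfbp2* and chr1:72914044-72914293 for *Igfbp5*.
Igfbp1: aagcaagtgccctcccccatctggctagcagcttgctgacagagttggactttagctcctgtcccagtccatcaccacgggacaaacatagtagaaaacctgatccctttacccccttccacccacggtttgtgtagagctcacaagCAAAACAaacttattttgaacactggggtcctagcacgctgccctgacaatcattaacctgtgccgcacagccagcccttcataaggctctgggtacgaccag
Igfbp3: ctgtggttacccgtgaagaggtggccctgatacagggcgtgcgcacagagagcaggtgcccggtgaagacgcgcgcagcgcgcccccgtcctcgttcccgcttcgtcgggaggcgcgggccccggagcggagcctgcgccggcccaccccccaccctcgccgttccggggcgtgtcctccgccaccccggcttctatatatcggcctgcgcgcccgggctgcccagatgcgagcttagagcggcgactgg
Igfbp2: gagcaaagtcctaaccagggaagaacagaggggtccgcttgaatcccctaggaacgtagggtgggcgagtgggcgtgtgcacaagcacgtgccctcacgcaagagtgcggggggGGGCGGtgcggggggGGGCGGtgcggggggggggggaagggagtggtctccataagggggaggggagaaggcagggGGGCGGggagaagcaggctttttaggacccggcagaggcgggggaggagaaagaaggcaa
Igfbp5: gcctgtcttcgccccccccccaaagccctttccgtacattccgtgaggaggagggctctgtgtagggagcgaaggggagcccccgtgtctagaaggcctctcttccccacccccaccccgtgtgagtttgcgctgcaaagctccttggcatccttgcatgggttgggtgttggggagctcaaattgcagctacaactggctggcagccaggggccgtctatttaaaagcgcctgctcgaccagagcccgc

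The upstream stretches of each pair differed in base composition. That of *Igfbp3* was 72.8% G+C with 33 CpG dinucleotides, and that of its neighbour *Igfbp1* was 52.4% with 5, against a median of 55.2% over 21595 protein-coding promoters. *Igfbp2* (67.2%, 14 CpG) and *Igfbp5* (62%, 11 CpG) were closer to each other. *Igfbp1* held CAAAACA once, starting 103 bases before the transcript start, and 5.57% of the 21595 promoters hold this word. *Igfbp2* held GGGCGG 3 times, at 136, 121 and 60 bases before the start, and 42% of promoters hold it at least once. The exact word TATAAA, present in 11.6% of promoters, was in none of these 4 windows. Looser forms of the TATA box were not searched. These matches are descriptions of letters, not of binding.

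Levels are given first, as mean TPM ± SD over the wt libraries of a context. Since TPM allows for transcript length, genes can be compared within a library. The respiratory tissues and diaphragm (32 libraries, single reads of 100 bases) and the somites and iBAT (25 libraries, paired reads of 150 bases) were sequenced at different centres, so levels set across these 2 tables cannot be told apart from the centre. As a check of the labels, *Hoxa5* was lower in the *Hoxa5*-/- libraries of every context with no overlap, by 0.92 on the log2 scale in somites at E10.5 and by 1.60 to 1.94 in the other 6 contexts. The transcript was not absent, with 9.84 to 112 TPM left in *Hoxa5*-/- libraries. Markers of the labelled tissue were present throughout: the skeletal muscle list summed to 10686 to 28404 TPM in diaphragm, the brown adipocyte list to 14250 to 20726 TPM in iBAT and the lung epithelium list to 1766 to 9013 TPM in lung at E15.5.

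**Figure D1:**
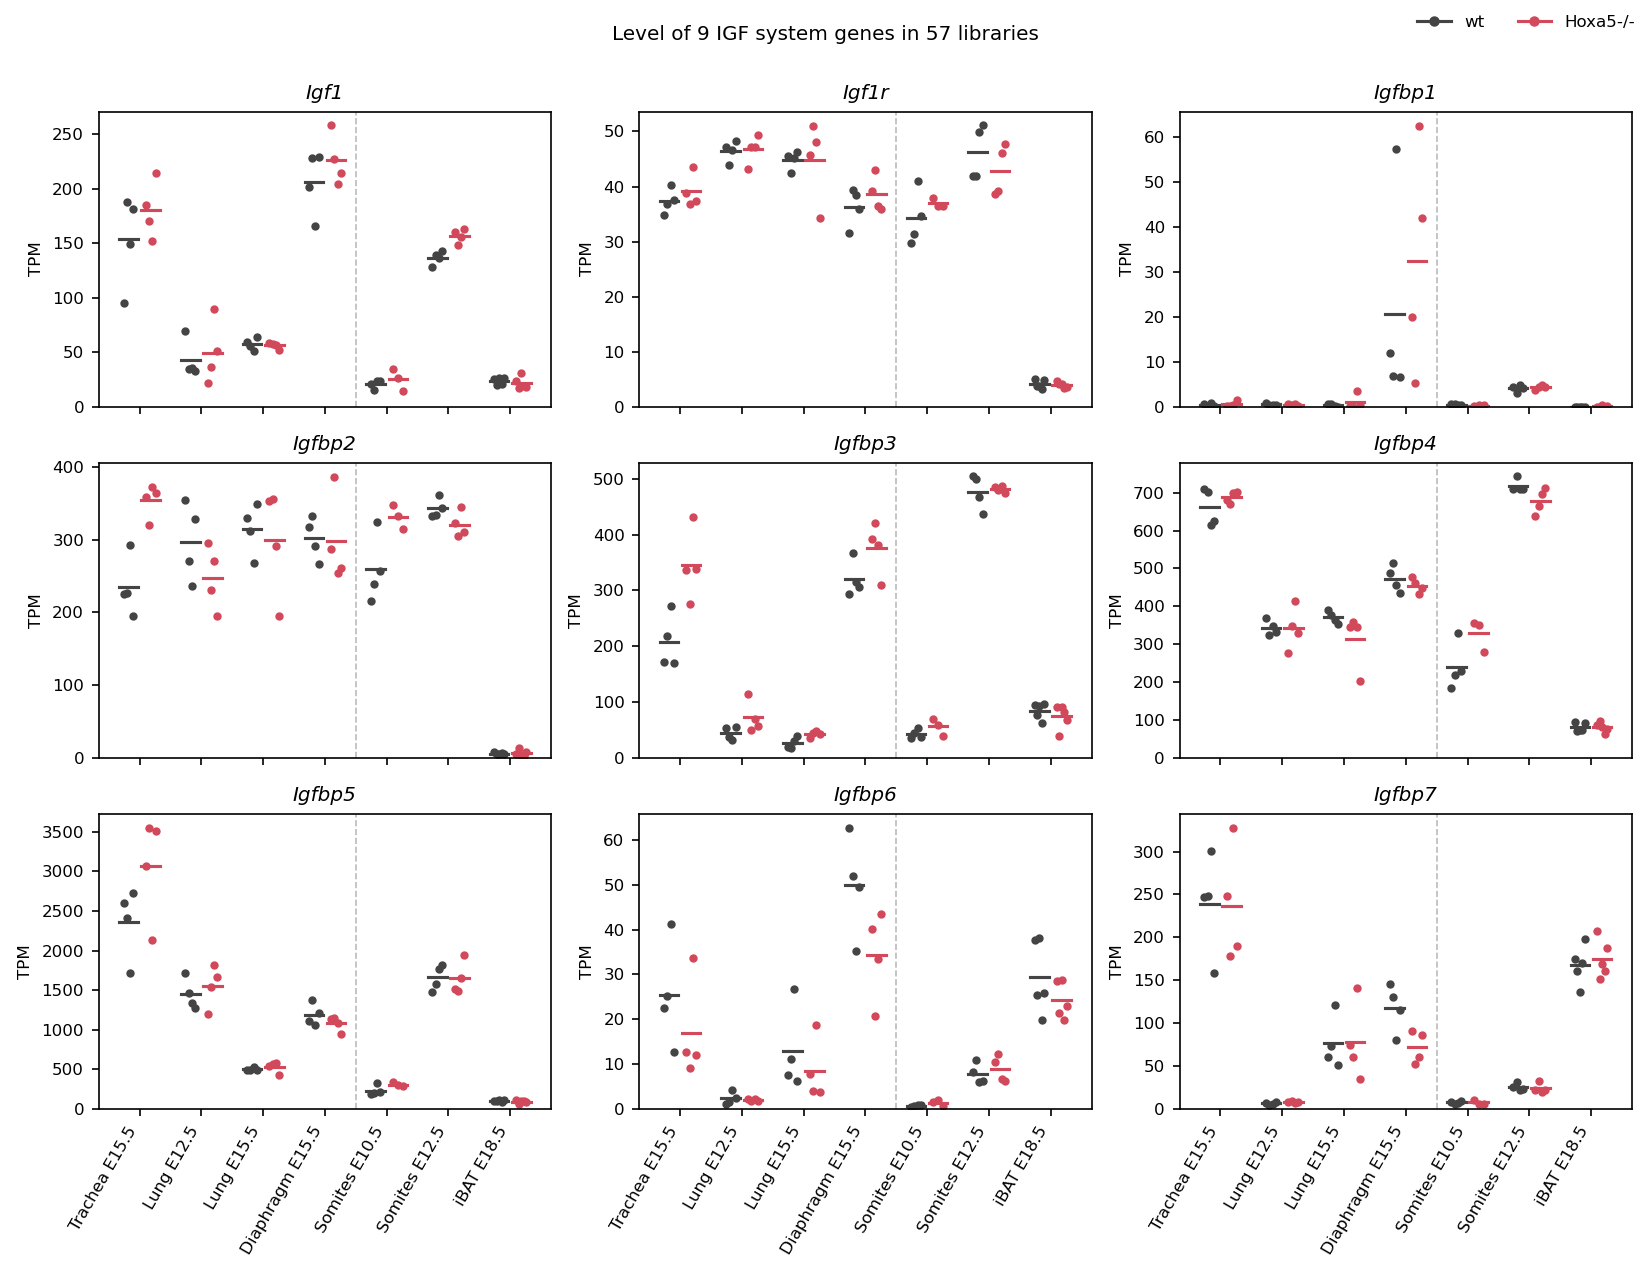
TPM (linear axes, 1 panel for each of the 9 genes) in each of the 57 libraries, by context, with wt libraries in dark grey, *Hoxa5*-/- libraries in red, a bar at each group mean and a dashed line between the 2 tables. *Igfbp5* stood at 1716 to 2728 TPM in wt trachea, while *Igfbp1* stayed below 1 TPM in the wt libraries of 5 contexts, and the genotypes lay close together for most genes.

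The ligand *Igf1* was high in diaphragm (206 ± 29.9 TPM, n = 4), trachea (154 ± 42.4, n = 4) and somites at E12.5 (137 ± 6.36, n = 4). It was lower in lung at E15.5 (57.1 ± 5.38, n = 4), lung at E12.5 (43.1 ± 17.8, n = 4), iBAT (23.9 ± 3.21, n = 5) and somites at E10.5 (21.01 ± 4.01, n = 4). Trachea overlapped both diaphragm and somites at E12.5, which did not overlap each other, and all 3 lay above lung at E15.5 without overlap. Lung at E12.5 lay above iBAT without overlap too, while the other neighbours in this order overlapped. In lung at E12.5 the 4 wt values were 69.8, 34.6, 35.0 and 33.0 TPM, so that 1 library stood apart from 3 that were nearly equal.

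The receptor *Igf1r* varied little across 6 of the 7 contexts, with wt means from 34.2 ± 4.99 TPM (n = 4) in somites at E10.5 to 46.5 ± 1.85 TPM (n = 4) in lung at E12.5. iBAT was the exception, where the 5 wt libraries held 5.10, 3.81, 3.77, 3.12 and 4.77 TPM. These values did not overlap with any other context. The 6 higher contexts formed an upper trio (lung at E12.5, somites at E12.5 and lung at E15.5) and a lower trio (trachea, diaphragm and somites at E10.5), with overlap between neighbours except at the step from lung at E15.5 (42.5 to 46.3 TPM) to trachea (34.9 to 40.4 TPM). The ratio of *Igf1* to *Igf1r* TPM ran from 0.617 in wt somites at E10.5 to 5.91 in wt iBAT and 5.73 in wt diaphragm, which reached a similar ratio from very different levels.

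*Igfbp5*, whose product is abundant in mesenchyme, muscle and bone, was the most highly expressed member in wt trachea (2363 ± 451 TPM, n = 4), somites at E12.5 (1661 ± 163, n = 4), lung at E12.5 (1450 ± 196, n = 4), diaphragm (1191 ± 140, n = 4) and lung at E15.5 (503 ± 20.4, n = 4). It fell to 232 ± 68.1 TPM (n = 4) in somites at E10.5 and to 101.02 ± 13.6 TPM (n = 5) in iBAT. The last 4 contexts of this order (diaphragm, lung at E15.5, somites at E10.5 and iBAT) were separated from one another without overlap.

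*Igfbp4*, which encodes an inhibitory binding protein cut by PAPP-A, stood at 718 ± 17.96 TPM (n = 4) in wt somites at E12.5 and at 663 ± 50.5 (n = 4) in trachea. It was at 473 ± 34.1 TPM in diaphragm, 371 ± 15.98 in lung at E15.5, 344 ± 19.4 in lung at E12.5 and 241 ± 62.4 in somites at E10.5 (n = 4 each), and lowest in iBAT, at 80.5 ± 11.2 TPM (n = 5). *Igfbp2*, the main binding protein of many embryonic epithelia and of fetal serum, kept to a narrow band in the 6 contexts outside iBAT, from 235 ± 40.8 TPM in trachea to 343 ± 13.6 TPM in somites at E12.5 (n = 4 each), and each neighbour in that order overlapped the next. In the 5 wt iBAT libraries it was at 7.38, 5.03, 5.18, 6.47 and 5.22 TPM, far below every other library of either genotype outside iBAT.

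*Igfbp3*, which encodes the main IGF carrier of postnatal serum, had the most stepwise pattern. Its wt means fell from 477 ± 31.3 TPM (n = 4) in somites at E12.5 to 321 ± 32.1 (n = 4) in diaphragm, 208 ± 48.1 (n = 4) in trachea, 84.6 ± 14.6 (n = 5) in iBAT and 44.3 ± 11.6 (n = 4) in lung at E12.5, with no overlap at any of these 4 steps. Somites at E10.5 (42.2 ± 8.30, n = 4) and lung at E15.5 (26.8 ± 10.05, n = 4) overlapped with lung at E12.5 or with each other.

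*Igfbp7* and *Igfbp6* shared a feature that set them apart from the rest, in that iBAT was among their higher contexts. *Igfbp7* stood at 238 ± 59.0 TPM (n = 4) in wt trachea, 168 ± 22.5 (n = 5) in iBAT, 118 ± 27.9 (n = 4) in diaphragm and 76.6 ± 30.8 (n = 4) in lung at E15.5, and without overlap below these at 25.7 ± 4.09 (n = 4) in somites at E12.5, 7.65 ± 1.49 (n = 4) in somites at E10.5 and 6.49 ± 1.41 (n = 4) in lung at E12.5. *Igfbp6*, whose product prefers IGF2 over IGF1, had 49.9 ± 11.3 TPM (n = 4) in wt diaphragm and 29.4 ± 8.17 TPM (n = 5) in iBAT. In wt somites at E10.5 it was at 0.452, 0.565, 0.857 and 0.796 TPM, the lowest values of the gene in any wt context.

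*Igfbp1*, the liver-made and insulin-suppressed binding protein, was below 1 TPM in every library of 5 of the 7 wt contexts. The 4 wt diaphragm libraries held 11.8, 6.86, 57.2 and 6.57 TPM, and the 4 wt somite libraries at E12.5 held 4.34, 3.13, 4.83 and 4.03 TPM. In wt iBAT it had 0 counts in all 5 libraries. With a floor of 3 counts per library, which is at most 0.279 TPM there and covers counting error only, it was at least 14.6-fold higher in wt somites at E12.5 (4.08 ± 0.712 TPM, n = 4).

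The diaphragm values of *Igfbp1* moved with a list of 10 hepatocyte markers. The list summed to 2129, 2003, 11200 and 2438 TPM in the 4 wt diaphragm libraries and to 2674, 473, 13674 and 11658 TPM in the 4 *Hoxa5*-/- libraries, where *Igfbp1* was at 19.97, 5.34, 62.4 and 41.9 TPM. The 3 libraries with the most hepatocyte markers were thus the 3 with the most *Igfbp1*. The same held for 1 lung library at E15.5 (*Hoxa5*-/- replicate 3), with 3.57 TPM of *Igfbp1* against 0 to 0.678 in the other 7, and with 633 TPM of hepatocyte markers against at most 75.2.

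In somites at E12.5 the hepatocyte list summed to 16.3 to 21.2 TPM, with *Alb*, the gene of albumin, at 0.227 to 0.639 TPM. *Igfbp1* there came to 188 to 267 TPM for each 1000 TPM of hepatocyte markers, against 2.69 to 11.3 in diaphragm. The part of hepatocyte RNA in the diaphragm values was not tested.

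**Figure D2:**
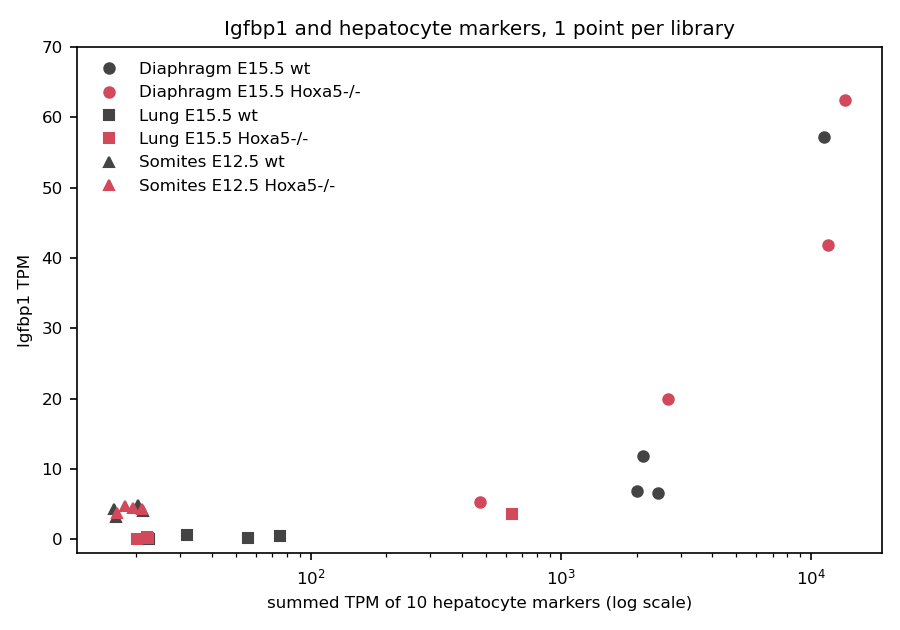
*Igfbp1* TPM (linear axis) against the summed TPM of 10 hepatocyte markers (log axis) in diaphragm, in lung at E15.5 and in somites at E12.5, with a point per library, a shape per context and wt in dark grey and *Hoxa5*-/- in red. The diaphragm libraries run from 473 to 13674 TPM of markers with *Igfbp1* between 5.34 and 62.4 TPM, and the somite libraries at E12.5 lie at 3.13 to 4.83 TPM with hardly any marker signal.

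Summed over the 7 binding proteins, wt trachea held 3733 ± 337 TPM, wt somites at E12.5 3237 ± 136, wt diaphragm 2475 ± 210 and wt lung at E12.5 2145 ± 248 (n = 4 each). The sum was smaller in lung at E15.5 (1306 ± 26.2, n = 4), somites at E10.5 (783 ± 184, n = 4) and iBAT (469 ± 49.5, n = 5). *Igfbp5* made up 67.5% ± 2.61 of the sum in wt lung at E12.5 and 62.9% ± 7.22 in wt trachea, and 38.5% ± 0.848 in wt lung at E15.5. Somites at E10.5 were split almost evenly among *Igfbp2* (33.4%), *Igfbp4* (30.6%) and *Igfbp5* (29.4%).

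iBAT had another make-up, in which *Igfbp7* took 35.9% ± 4.31 of the sum (n = 5) and *Igfbp2* 1.26%. *Igfbp3* exceeded *Igfbp2* by 14.8 times in wt iBAT, whereas it was 0.0857 times *Igfbp2* in wt lung at E15.5. The summed binding proteins exceeded *Igf1* in every wt context, by 12.1 times in diaphragm to 53.4 times in lung at E12.5.

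**Figure D3:**
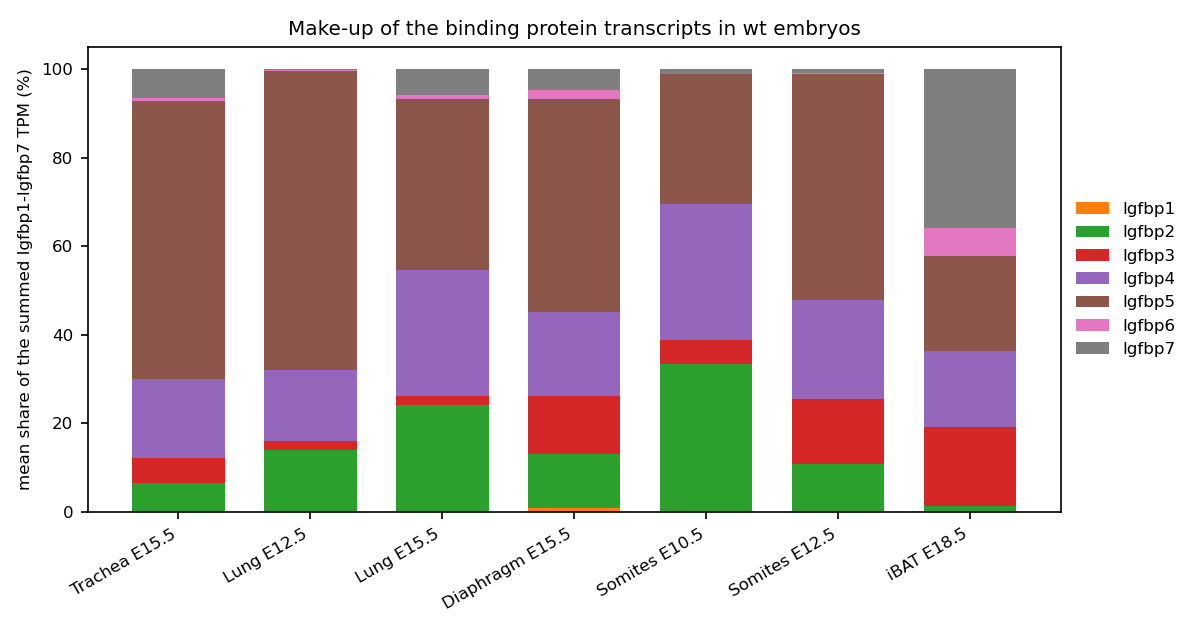
Share of the summed TPM of *Igfbp1* to *Igfbp7* held by each gene in the wt libraries, as stacked mean percentages per context. *Igfbp5* takes 67.5% in lung at E12.5 and 21.5% in iBAT, where *Igfbp7* takes the largest share at 35.9%.

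To ask how the members differ between tissues and stages, wt libraries were compared with edgeR's quasi-likelihood test on the counts. Genes were tested where their mean TPM reached 1 in at least 1 of the groups compared, and a gene was called at a Benjamini-Hochberg adjusted p under 0.05 over all genes tested and a change of at least 1.5-fold. The values below are log2 fold changes ± SE. They rest on counts scaled between libraries (TMM scaling) and can differ from ratios of the TPM printed beside them. In bulk tissue, a change in the share of the cells that express a gene cannot be told apart from a change of its RNA per cell.

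In the somites, 7 of the 9 members rose from E10.5 to E12.5 and none fell, where 42.6% of 19773 genes were called (24.1% higher, 18.4% lower). *Igfbp3* went from 34.6, 44.1, 53.1 and 37.1 TPM at E10.5 to 505, 499, 467 and 437 TPM at E12.5. The groups were far apart, and the change was 3.44 ± 0.11 (edgeR, adjusted p = 3.46e-11), or 10.8-fold. *Igf1* went from 21.2, 15.3, 23.9 and 23.7 to 128, 139, 136 and 143 TPM, a rise of 2.64 ± 0.12 (edgeR, adjusted p = 4.46e-10). *Igfbp5* rose by 2.78 ± 0.16, from 183, 197, 332 and 217 TPM to 1478, 1572, 1772 and 1823 TPM. *Igfbp6* (3.48 ± 0.31), *Igfbp1* (2.99 ± 0.30), *Igfbp7* (1.69 ± 0.17) and *Igfbp4* (1.52 ± 0.13) rose too, of which *Igfbp6* and *Igfbp1* entered the test through their E12.5 level alone.

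The receptor and *Igfbp2* moved least in the somites. *Igf1r* changed by 0.37 ± 0.09 (edgeR, adjusted p = 0.0034) and *Igfbp2* by 0.34 ± 0.09 (adjusted p = 0.00364), both under 1.5-fold. The median over the 9 members was 2.64 and that over all genes tested was -0.04. Of 35 other genes of the pathway (a fixed list of ligands, receptors, proteases, inhibitors and signalling genes), 22 of the 33 tested rose and 2 fell. *Igf2* was among those that rose, from 65.3 to 422 TPM on average (2.64 on the log2 scale).

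In lung, the binding proteins moved in opposite directions between E12.5 and E15.5. Of 8 members tested, 2 rose and 2 fell, where 24.6% of 18158 genes were called (15.4% higher, 9.15% lower). *Igfbp7* went from 6.73, 4.81, 6.21 and 8.23 TPM to 61.0, 73.05, 121 and 51.4 TPM, a rise of 3.53 ± 0.28 (edgeR, adjusted p = 6.8e-06) or 11.6-fold. *Igfbp6*, at 1.19 to 4.26 TPM at E12.5, reached 7.64, 11.2, 26.7 and 6.17 TPM, a rise of 2.42 ± 0.53 (edgeR, adjusted p = 0.00341). Without wt replicate 3 at E15.5, the highest library for both genes, the rises were 3.23 and 1.81 and both were still called. *Igfbp5* went from 1721, 1459, 1341 and 1278 TPM to 490, 496, 533 and 492 TPM, and fell by 1.57 on the log2 scale (SE 0.10, edgeR adjusted p = 1.78e-06), or 2.96-fold.

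*Igfbp3* was also lower in the older lung, by -0.77 ± 0.26 (edgeR, adjusted p = 0.0324), but its groups were 31.4 to 55.4 and 18.1 to 39.3 TPM and overlapped. The call was lost without wt replicate 1 or 4 of E12.5 or without wt replicate 1 or 2 of E15.5 (-0.62 to -0.67, adjusted p 0.0795 to 0.0864). *Igf1* did not pass the test (0.37 ± 0.22, edgeR adjusted p = 0.195), but passed without the wt library at E12.5 that stood at 69.8 TPM (0.71, adjusted p = 0.000134). *Igf1r* (-0.09 ± 0.04), *Igfbp2* (0.04 ± 0.13) and *Igfbp4* (0.08 ± 0.06) did not pass. Of the other pathway genes, 4 of 31 tested rose and 4 fell, including *Igf2*, from 267 to 145 TPM on average (-0.92).

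Across the E15.5 tissues, trachea and diaphragm held more of most members than lung. These comparisons share libraries, since each wt group enters 2 of the 3. In trachea over lung, 5 of 8 members tested were higher and none lower, where 30.2% of 19340 genes were called (20.1% higher, 10.1% lower). *Igfbp3* was at 171, 218, 272 and 170.2 TPM in trachea and 19.2, 18.1, 30.5 and 39.3 TPM in lung, a difference of 2.93 ± 0.28 (edgeR, adjusted p = 3.48e-05) or 7.60-fold. *Igfbp5* differed by 2.20 ± 0.14, *Igfbp7* by 1.61 ± 0.28, *Igf1* by 1.39 ± 0.20 and *Igfbp4* by 0.80 ± 0.07 (edgeR, adjusted p 3.64e-06 to 0.00131). *Igf1r* (-0.30 ± 0.06) and *Igfbp2* (-0.46 ± 0.13) were lower at an adjusted p of 0.00306 and 0.0154, but by under 1.5-fold. Of the other pathway genes, 7 of 31 tested were higher in trachea, among them *Igf2* (1.77) and the protease genes *Pappa*, *Pappa2* and *Htra1*, and 2 were lower.

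*Igfbp6* was at 22.4, 25.3, 41.2 and 12.7 TPM in wt trachea and 7.64, 11.2, 26.7 and 6.17 TPM in wt lung at E15.5, so that replicate 3 was high and replicate 4 low in both organs. It did not pass without a block (0.95 ± 0.50, edgeR adjusted p = 0.142), and passed with the replicate number as a block (1.05, adjusted p = 0.00202). The values of the other members above come from the fit without a block. Same-numbered pairs deviated together across genes here, but differently numbered pairs were not compared. The summed mesothelium markers were at 970, 1091, 1864 and 630 TPM in wt trachea and 207, 239, 414 and 221 TPM in wt lung, given for replicates 1 to 4, in the same order as *Igfbp6* in trachea and with the same 2 highest libraries in lung. Their part in the *Igfbp6* values was not tested.

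In diaphragm over lung at E15.5, 7 of the 9 members were higher and none lower, where 36.4% of 18984 genes were called (20.9% higher, 15.6% lower). *Igfbp3*, at 294.5, 367, 316 and 306 TPM in diaphragm, differed by 3.89 ± 0.25 (edgeR, adjusted p = 1.62e-06), or 14.9-fold. *Igf1* differed by 2.16 ± 0.12, *Igfbp6* by 2.26 ± 0.44, *Igfbp5* by 1.55 ± 0.09 and *Igfbp4* by 0.66 ± 0.07. *Igfbp1* differed by 6.07 ± 0.99, and by 4.83 without the wt diaphragm library richest in hepatocyte markers, having entered the test through the diaphragm alone. *Igfbp7* passed at 0.94 ± 0.28 (edgeR, adjusted p = 0.0179), a call lost without wt lung replicate 1 (0.84, adjusted p = 0.0516) or wt diaphragm replicate 1 (0.79, adjusted p = 0.0536). *Igf1r* differed by -0.00 ± 0.06, with a 95% interval of -0.13 to 0.12. In TPM, however, *Igf1r* was lower in diaphragm (31.6 to 39.3) than in lung (42.5 to 46.3) without overlap. *Igfbp4* had a mean of 473 TPM in diaphragm and 371 in lung, under 1.5-fold apart. The readings of these genes thus depend on the scaling. Of the other pathway genes, 9 of 30 tested were higher in diaphragm, *Igf2* (1.99) again among them, and 3 were lower.

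In diaphragm over trachea, 5 members were higher and 2 lower of 9 tested, where 32.5% of 19730 genes were called (14.1% higher, 18.4% lower). *Igfbp5*, at 1108, 1377, 1061 and 1217 TPM in diaphragm against 2601, 2408, 1716 and 2728 TPM in trachea, fell by 0.69 (SE 0.15) on the log2 scale, and *Igfbp7* fell by 0.72 (SE 0.23). *Igfbp6* (1.26 ± 0.34), *Igfbp3* (0.92 ± 0.15), *Igf1* (0.72 ± 0.21) and *Igfbp2* (0.65 ± 0.13) were higher in diaphragm, beside *Igfbp1* (5.89 ± 0.96). *Igfbp1*, at a mean of 0.387 TPM in wt trachea, entered the test through the diaphragm alone, where its values moved with the hepatocyte markers. Single libraries decided 4 of these calls. *Igf1* fell under 1.5-fold without wt trachea replicate 1 (0.55), *Igfbp2* without wt trachea replicate 4 (0.57) and *Igfbp5* without wt diaphragm replicate 3 (-0.57). *Igfbp7* missed the adjusted threshold without any of wt trachea replicates 1 to 3 or wt diaphragm replicates 2 to 4 (-0.50 to -0.74, edgeR adjusted p 0.0576 to 0.0776).

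iBAT at E18.5 was compared with somites at E12.5, since the precursors of brown fat arise from somites, and both tissue and stage differ between them. All 9 members were called, where 66.3% of 19369 genes were (31% higher, 35.3% lower). Among them *Igfbp1* was called as lower, with the bound given above, and had entered the test through the somites alone. *Igfbp7* went from 25.7, 31.5, 22.5 and 23.3 TPM in somites to 175, 161, 136, 170 and 198 TPM in iBAT, a difference of 3.91 ± 0.11 (edgeR, adjusted p = 1.18e-13) or 14.998-fold, and *Igfbp6* was 8.63-fold higher (3.11 ± 0.23). *Igfbp2* fell 25.3-fold (-4.66 ± 0.10), *Igfbp5* 7.13-fold (-2.83 ± 0.11) and *Igf1r* 4.89-fold (-2.29 ± 0.11). *Igfbp4* (-1.96 ± 0.08), *Igf1* (-1.31 ± 0.08) and *Igfbp3* (-1.29 ± 0.10) were lower as well. The TPM gave other sizes than these scaled counts. *Igfbp7* rose less in TPM, from a mean of 25.7 to 168, and *Igf1r* fell more, from 46.2 to 4.11. *Igfbp2*, *Igfbp3*, *Igfbp4*, *Igfbp5* and *Igf1* likewise fell more in TPM, and *Igfbp6* rose less.

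The pathway list showed which other parts of the system accompanied the low receptor level in iBAT. Of 34 tested, 12 were higher and 15 lower. *Insr*, the insulin receptor, was higher in the scaled counts (1.40). Its TPM overlapped, at 13.98 to 16.1 in wt somites at E12.5 and 15.1 to 19.6 in wt iBAT. *Igf2* (-2.94) and *Igf2r* (-1.27), the receptor that clears IGF2, were lower. *Pappa* was at a mean of 0.69 TPM and *Pappa2* at 0.26 TPM in wt iBAT, against 14.2 and 17.3 TPM in wt somites at E12.5.

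**Figure D4:**
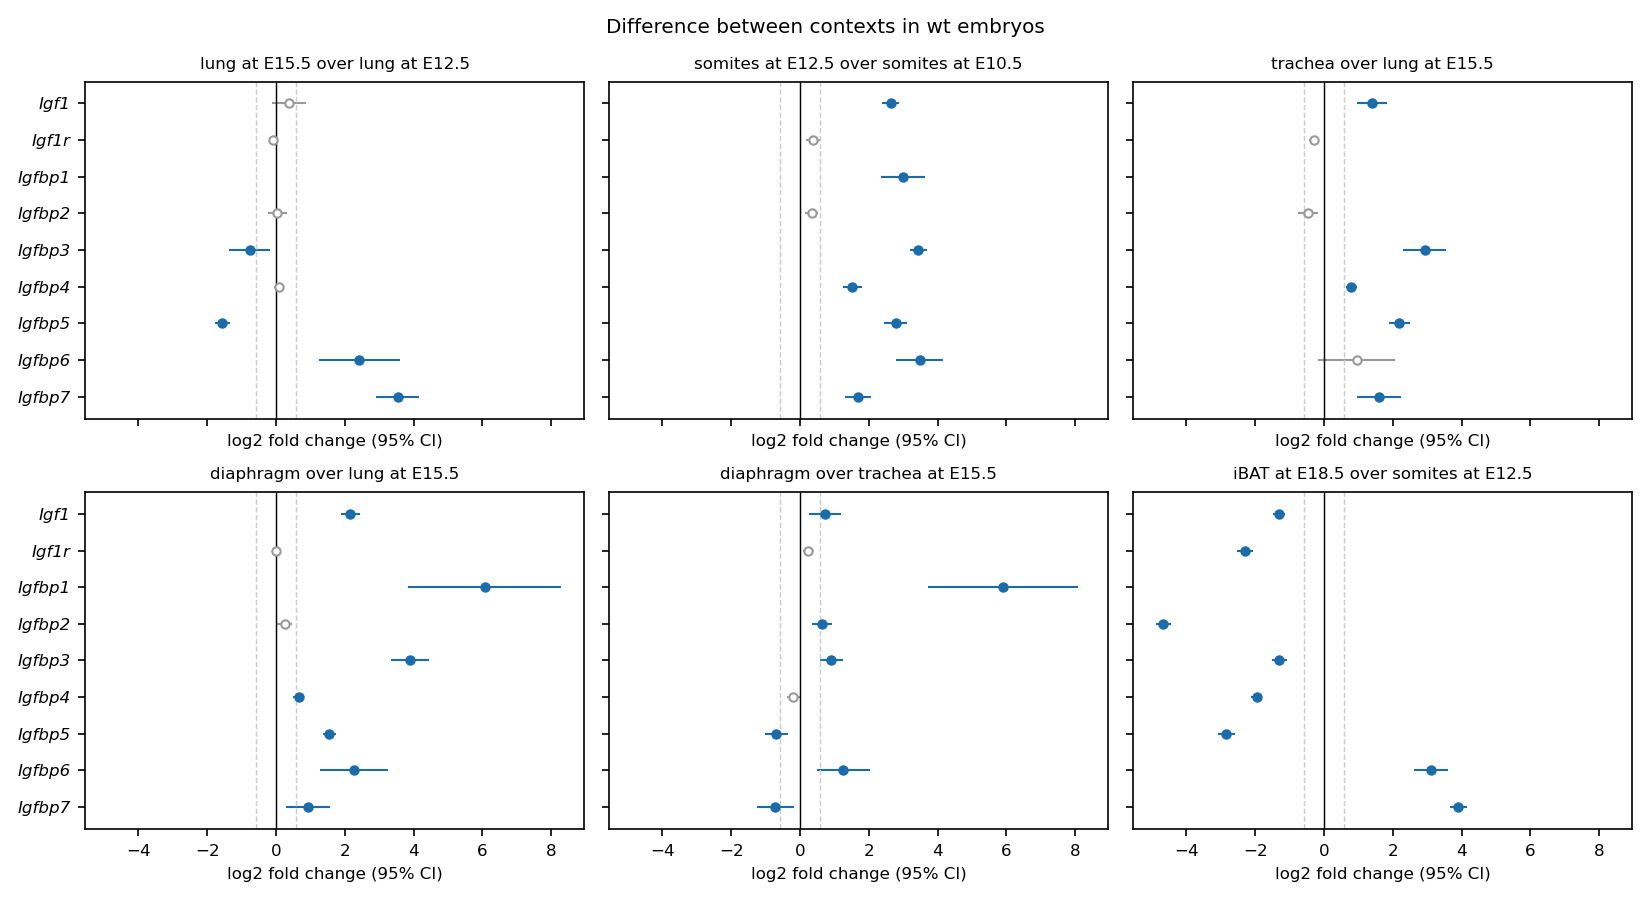
Log2 fold changes of the members in the 6 comparisons of wt libraries, with 95% confidence intervals, filled where called, and dashed lines at 1.5-fold. *Igfbp3* spans 3.89 (diaphragm over lung) to -1.29 (iBAT over somites), while *Igf1r* stays within 0.37 of 0 except in iBAT. *Igfbp1* in iBAT over somites is not drawn, as iBAT had 0 counts.

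The same 6 comparisons could be made within the *Hoxa5*-/- libraries, which are separate samples. The share of genes called ran from 20% to 65.7% (lung 20%, trachea over lung 27.1%, diaphragm over trachea 35.8%, diaphragm over lung 36.2%, somites 36.9%, iBAT over somites 65.7%). Of 58 results over the members and the counts of other pathway genes, 54 kept their side of the threshold, and 4 were no longer called. *Igfbp3* in lung (-0.73, edgeR adjusted p = 0.0685), *Igfbp7* in diaphragm over lung (0.11, adjusted p = 0.786) and *Igfbp2* (0.05, adjusted p = 0.753) and *Igfbp3* (0.42, adjusted p = 0.0301, under 1.5-fold) in diaphragm over trachea were those 4. No result called in either genotype changed direction, and the direction of results called in neither was not compared. *Igfbp2*, for 1, had lower mean TPM in wt trachea (235) than in wt lung at E15.5 (315). In the *Hoxa5*-/- libraries its mean was higher in trachea (354) than in lung at E15.5 (299).

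With edgeR, no member was called between genotypes in any of the 7 contexts. *Igfbp1* reached the level for testing in 3 contexts (lung at E15.5, diaphragm and somites at E12.5) and the other 8 members in all 7. The background was low: in trachea 0.0156% of 19220 genes were called, in the lung 0.0798% of 17548 (E12.5) and 0.124% of 17777 (E15.5), in diaphragm 0.594% of 18019, in the somites 0.0215% of 18573 (E10.5) and 0.00529% of 18906 (E12.5), and in iBAT 0.00657% of 15212. At an unadjusted p under 0.05, 2, 1, 3, 2, 3, 1 and 0 members passed in these contexts, in this order, as did 1288, 1406, 1123, 2348, 2360, 613 and 376 of all genes tested.

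**Figure D5:**
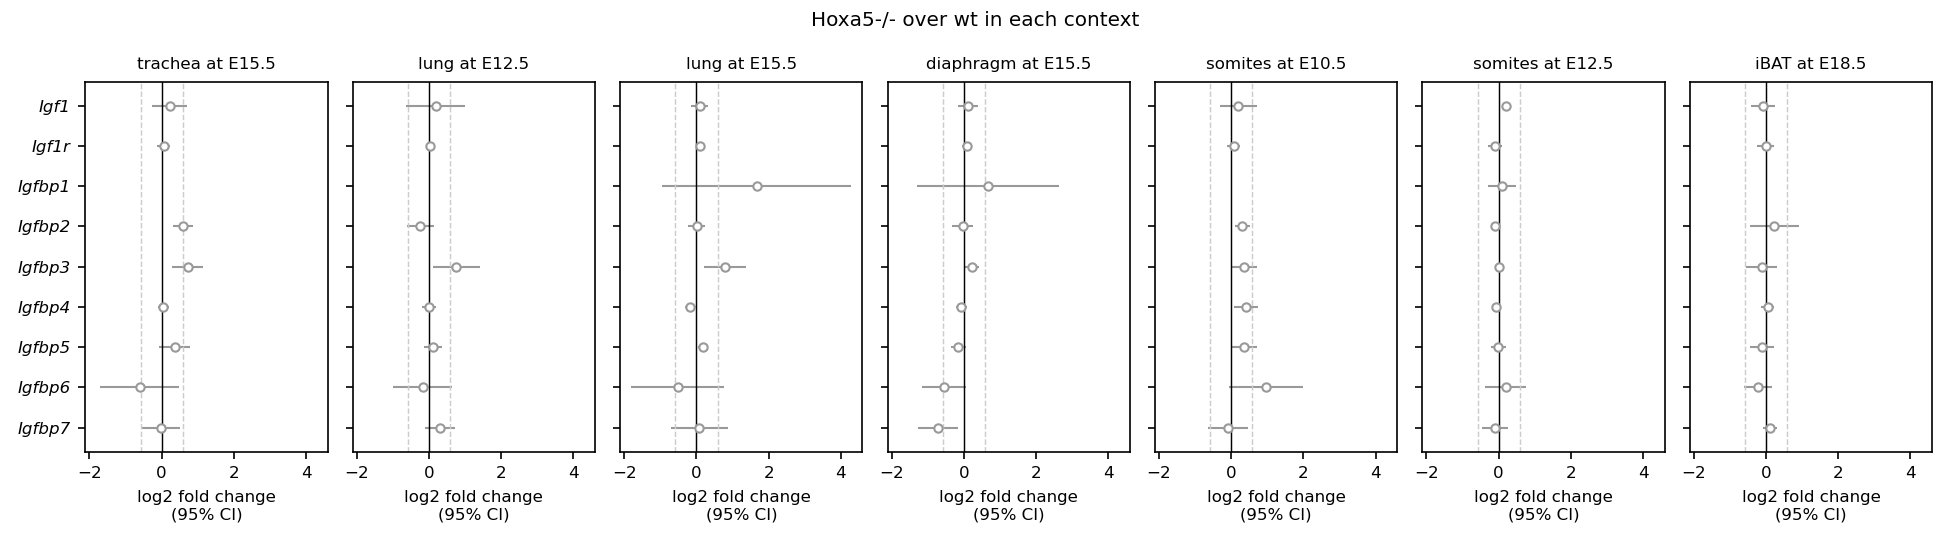
Log2 fold changes of *Hoxa5*-/- over wt for each member in each context where it was tested, with 95% confidence intervals and dashed lines at 1.5-fold. *Igfbp3* lies above 0 in 6 of 7 contexts and reaches 0.79 in lung at E15.5, *Igf1r* stays between -0.10 and 0.09, and no member passes the adjusted threshold with edgeR.

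In trachea, *Igfbp2* and *Igfbp3* were higher in every *Hoxa5*-/- library than in any wt library. *Igfbp3* was at 171, 218, 272 and 170.2 TPM in wt trachea and 336, 275, 432 and 338 TPM in *Hoxa5*-/- trachea, and *Igfbp2* at 226, 227, 292 and 195 TPM and at 359, 320.5, 373 and 364 TPM. That both groups lay apart, with *Hoxa5*-/- above wt, held for 2.08% of the genes tested there. The difference was 0.72 ± 0.19 for *Igfbp3* (95% interval 0.29 to 1.15, edgeR adjusted p = 0.653) and 0.58 ± 0.12 for *Igfbp2* (0.30 to 0.86, adjusted p = 0.542). *Hoxa5*-/- replicate 3, the highest of both genes, also stood apart in skeletal muscle markers (3106 TPM, against 55.3 to 664 in the other 7 libraries), and without it the differences were 0.60 for *Igfbp3* (adjusted p = 0.266) and 0.56 for *Igfbp2* (adjusted p = 0.253).

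The 2 tools differed on these genes. With DESeq2, which called 0.271% of genes in trachea, *Igfbp3* was called (0.73, adjusted p = 0.0489), and *Igfbp2* passed the adjusted threshold (0.58, adjusted p = 0.00731) but stayed just under 1.5-fold. The summed binding proteins were at 4706 ± 500 TPM in *Hoxa5*-/- trachea (n = 4) against 3733 ± 337 in wt, of which *Igfbp5* held the most, at 3063, 3552, 2139 and 3505 TPM against 2601, 2408, 1716 and 2728 TPM. *Igfbp5* itself differed by 0.37 ± 0.19 (edgeR, adjusted p = 0.764) with overlapping groups.

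*Igfbp3* was higher in *Hoxa5*-/- in 6 of 7 contexts, with an unadjusted p under 0.05 in 4 of them. *Igf1* was also higher in 6 of 7, with an unadjusted p under 0.05 in 1. Such counts were not made over all genes, so they show no trend particular to *Igfbp3*. In lung at E15.5 *Igfbp3* was at 19.2, 18.1, 30.5 and 39.3 TPM in wt and 35.5, 44.4, 47.8 and 41.9 TPM in *Hoxa5*-/-, groups that overlapped through wt replicate 4 (0.79 ± 0.26, edgeR adjusted p = 0.576). In lung at E12.5 it was at 52.7, 37.8, 31.4 and 55.4 TPM in wt and 115, 50.1, 69.4 and 56.5 TPM in *Hoxa5*-/- (0.76 ± 0.29, edgeR adjusted p = 0.567). The value of 115 TPM came from the library with 91688 TPM of erythroid markers against at most 23098 in the other 7, and without it the difference was 0.37 (adjusted p = 0.593).

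In diaphragm the *Igfbp3* difference was 0.22 ± 0.09 (edgeR, adjusted p = 0.324), in somites at E10.5 0.36 ± 0.16 (adjusted p = 0.392), in somites at E12.5 0.02 ± 0.05 and in iBAT -0.12 ± 0.20. Somites at E12.5, where *Igfbp3* was highest, thus gave the narrowest interval (-0.09 to 0.14), which contains 0. Also in lung at E15.5, *Igfbp5* differed by 0.18 ± 0.06 (edgeR, adjusted p = 0.633) and *Igfbp4* by -0.17 ± 0.07 (adjusted p = 0.728). *Hoxa5*-/- replicate 4 there had the lowest *Igfbp4* (203 TPM). By the study's read statistics, it also had the smallest shares of mapped and of assigned reads among the lung libraries at E15.5.

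In diaphragm, *Igfbp7* was at 146, 131, 80.7 and 115 TPM in wt and 90.6, 52.4, 61.0 and 85.8 TPM in *Hoxa5*-/- (-0.71 ± 0.24, 95% interval -1.26 to -0.17, edgeR adjusted p = 0.247). The groups overlapped through wt replicate 3. *Igfbp6* was at 62.7, 51.9, 35.3 and 49.6 TPM against 40.0, 20.7, 33.3 and 43.5 TPM (-0.54 ± 0.27, edgeR adjusted p = 0.434). Summed endothelial markers were at 339, 304, 380 and 321 TPM in wt and 300.5, 266, 221 and 266 TPM in *Hoxa5*-/-, without overlap. Neural markers were lower without overlap too, at 31.9 to 61.7 TPM in wt and 14.5 to 17.2 in *Hoxa5*-/-, and sclerotome and dermomyotome markers were higher, at 53.2 to 60.1 and 64.3 to 77.7 TPM. Their part in the *Igfbp7* and *Igfbp6* values was not tested. Without the 3 libraries rich in hepatocyte markers, *Igfbp7* differed by -0.91 (adjusted p = 0.171), *Igfbp6* by -0.90 (adjusted p = 0.241) and *Igfbp1* by 0.55 (adjusted p = 0.678), and no member was called.

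In somites at E10.5, *Igfbp4* was at 184, 219, 330 and 230 TPM in wt and 355, 351 and 280 TPM in *Hoxa5*-/- (0.41 ± 0.15, edgeR adjusted p = 0.391). *Igfbp5* (0.36 ± 0.16) and *Igfbp2* (0.31 ± 0.10) had the same adjusted p. For all 3 genes wt replicate 3 overlapped the *Hoxa5*-/- libraries and the other 3 wt libraries did not. Skeletal muscle markers had a like order, at 147, 135, 276 and 204 TPM in wt and 338, 295 and 249 TPM in *Hoxa5*-/-. They were not alone, as endothelial markers had means of 181 TPM in wt and 217 in *Hoxa5*-/-. Sclerotome and dermomyotome markers had means of 333 and 415 TPM. Erythroid markers (11993 and 8590 TPM) and brown adipocyte markers (4.51 and 3.10 TPM) had lower means in *Hoxa5*-/-. The part of these lists was not tested. Without wt replicate 3 the 3 genes passed the adjusted threshold (adjusted p 0.0139 to 0.0158) by 0.41 to 0.57, under 1.5-fold. The median over the 8 members tested was 0.33, and that over all genes tested -0.01.

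In somites at E12.5, *Igf1* was at 128, 139, 136 and 143 TPM in wt and 160, 148, 156 and 163 TPM in *Hoxa5*-/-, with no overlap, as in 1.13% of the genes tested there (0.20 ± 0.06, edgeR adjusted p = 0.999). In the other 6 contexts the *Igf1* groups overlapped, with differences of -0.07 to 0.22. *Igf1r* was the most even member, from -0.10 in somites at E12.5 to 0.09 in lung at E15.5, and the 95% intervals of all 7 contexts lay within 0.808-fold and 1.19-fold. For *Igfbp1*, the 95% interval ran from 0.813-fold to 1.38-fold in somites at E12.5, but from 0.41-fold to 6.25-fold in diaphragm and from 0.51-fold to 19.6-fold in lung at E15.5, where a difference of genotype was not detectable at its spread. In iBAT all 8 members tested lay between -0.23 and 0.23.

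To ask whether the genotype difference itself changed between contexts, interaction terms were fitted for 5 pairs of contexts, and no member was called where 0.0267% (lung, by stage), 0.0147% (somites, by stage), 0.00502% (trachea and lung), 0.73% (diaphragm and lung) and 0.439% (diaphragm and trachea) of genes were. *Igfbp2* had the lowest unadjusted p in 3 of the 5. Its genotype difference was 0.57 ± 0.16 larger in trachea than in lung at E15.5 (edgeR, adjusted p = 0.589), -0.59 ± 0.19 in diaphragm relative to trachea (adjusted p = 0.253) and -0.40 ± 0.11 in somites at E12.5 relative to E10.5 (adjusted p = 0.327). Of the others, *Igfbp4* had a term of 0.21 ± 0.09 in trachea and lung, *Igfbp5* of -0.33 ± 0.11 in diaphragm and lung (edgeR, adjusted p = 0.313) and of -0.50 ± 0.22 in diaphragm and trachea, and *Igfbp3* of -0.48 ± 0.22 in diaphragm and trachea. The terms of *Igf1* (-0.09 to 0.12) and *Igf1r* (-0.17 to 0.08) were small in all 5. The somite result rested on 1 library. Without wt replicate 3 of E10.5, *Igfbp2* (-0.49, adjusted p = 0.0047), *Igfbp4* (-0.63, adjusted p = 0.0047) and *Igfbp5* (-0.55, adjusted p = 0.0204) were called.

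Of the 35 other pathway genes, 29 to 33 were tested in each context and edgeR called none between genotypes. *Pappa2*, which encodes a protease that cuts IGFBP3 and IGFBP5, differed by -0.90 ± 0.17 in trachea (edgeR, adjusted p = 0.439) and was called by DESeq2 (-0.89, adjusted p = 0.000785). *Grb14*, an adaptor that restrains insulin receptor signalling, was called by DESeq2 in diaphragm (-0.80, adjusted p = 0.00144), where that tool called 2.25% of genes.

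Last, the genes most alike to each member were sought over the 14 group means of log2(TPM + 1), among 12404 genes. These correlations are descriptions over contexts of both tables, which differ in centre, read layout and depth. Likeness through tissue cannot be told apart from likeness through these. *Igf1* was most like *Col5a1*, a fibrillar collagen gene (Pearson r = 0.990). *Igfbp3* was most like *Lum* (0.958) and *Cthrc1* (0.957), both of the extracellular matrix. *Igfbp7* was most like *Clec3b* (0.987), and *Igfbp6* most like *Htra3* (0.985). *Igfbp1*, highest in diaphragm, was most like *Ky* (0.977) and *Scn4a* (0.972). Among the members themselves *Igf1r* and *Igfbp2* were closest (0.989), both at their lowest in iBAT, followed by *Igfbp4* and *Igfbp5* (0.916) and by *Igfbp6* and *Igfbp7* (0.897).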

How the data were processed

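RNA-seq of 57 libraries was analysed. Per the labels and the study's methods, reads were trimmed (Trim Galore 0.6.5) and aligned to GRCm39 (STAR 2.7.9a) by the authors, and gene counts were made by featureCounts 2.0.3 with an Ensembl annotation curated at the Hox loci. They deposited raw counts and TPM, which was recomputed from the counts within 2.9e-11. The strand setting is not given in the sources used here. Library totals were 20552280 to 72991481 counts in trachea, lung and diaphragm and 18369905 to 28234711 in somites and iBAT. No 2 libraries held identical values.

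Counts were tested with edgeR 4.0.16 (R 4.3.3, TMM scaling, quasi-likelihood) on all genes whose mean TPM reached 1 in any group compared. Genes were called at an adjusted p under 0.05 (Benjamini-Hochberg) and at least 1.5-fold, or at the adjusted p alone for interactions. Fits held only the libraries of the groups compared. All 9 members were tested wherever they reached this level, and all were eligible to be named. Other genes were named from fixed lists. The members, lists and tests were chosen with earlier results of these data known. Alternatives were DESeq2 1.42.0, its size factors, other filters, no fold minimum, 1 fit per table, CPM, the replicate block and leaving out each library. The tests were checked on simulated data.

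Replicate numbers were taken to pair libraries only where every same-numbered pair deviated together by a correlation over 0.1 across genes. Differently numbered pairs were not compared. This held in iBAT between genotypes (0.2056, 0.2096, 0.3013, 0.1807 and 0.1138) and between wt trachea and wt lung at E15.5 (0.2833, 0.1941, 0.534 and 0.5095). In the iBAT sample names, same-numbered libraries of both genotypes share a leading number. The last such number covers more than a single replicate of each genotype, and the labels do not settle how those pair.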

Additional observations from a re-analysis of the deposited data

Results flagged for a closer look

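In 108 groups of 4 or 5 libraries of a member, 7 had a library set apart from the rest by more than Dixon's 95% limit, and chance sets apart about 1 in 20 groups. *Igf1* in lung at E12.5 was at 69.8 TPM in wt replicate 1 and at 33.0 to 35.0 TPM in the other 3. *Igfbp1* was at 3.57 TPM in *Hoxa5*-/- replicate 3 of lung at E15.5, against 0 to 0.383 TPM, and at 57.2 TPM in wt replicate 3 of diaphragm, against 6.57 to 11.8 TPM. Both of these libraries were also the highest of their groups in hepatocyte markers. *Igfbp4* was at 203 TPM in *Hoxa5*-/- replicate 4 of lung at E15.5, against 345 to 359 TPM. By the study's read statistics, that library had smaller shares of mapped and of assigned reads than the other lung libraries at E15.5. *Igfbp4* was also at 745 TPM in wt replicate 2 of somites at E12.5, against 709 to 710 TPM. *Igfbp5* was at 533 TPM in wt replicate 3 of lung at E15.5, against 490 to 496 TPM. *Igfbp6* was at 33.6 TPM in *Hoxa5*-/- replicate 3 of trachea, against 9.16 to 12.6 TPM, in the *Hoxa5*-/- trachea library with the most mesothelium markers (1438 TPM against 559 to 944). What set these libraries apart was not tested.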

How the results depend on the processing

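No result called in the main fit or in an alternative reversed between them. The direction of results called in neither was not compared. The count of members called between genotypes was 0 in all 7 contexts, with 2 exceptions: DESeq2 called 1 in trachea (*Igfbp3*), and the replicate block called 1 in lung at E15.5 (*Igfbp3*, 0.84, adjusted p = 0.0129), where the replicate numbers were not shown to pair the libraries. The replicate block likewise called 1 member in the interaction of diaphragm and lung (*Igfbp3*, -0.62, adjusted p = 0.0425). In the iBAT pairing it changed no call, and in that of trachea and lung it added *Igfbp6*. Leaving out each library in turn gave 0 to 0 members called in each genotype comparison, 3 to 4 in lung by stage, 7 to 7 in somites, 5 to 6 in trachea over lung, 6 to 7 in diaphragm over lung, 5 to 7 in diaphragm over trachea and 9 to 9 in iBAT over somites. It gave 0 to 3 in the somite interaction and 0 to 0 in the other 4. With CPM in place of TPM, *Igf1r* kept its rank in 3 of 7 contexts, whose levels lie close together. Over all genes, edgeR and DESeq2 called 3 and 52 in trachea, 14 and 81 in lung at E12.5, 22 and 83 in lung at E15.5, 107 and 406 in diaphragm, 4 and 18 in somites at E10.5, 1 and 2 in somites at E12.5 and 1 and 4 in iBAT. The fit without the 3 diaphragm libraries rich in hepatocyte markers was chosen after seeing the data, and called 0 members. The causes of these differences were not tested. *Igfbp1* had 0 to 17 counts in most libraries outside diaphragm and somites at E12.5, which limits what can be said of it there.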
